A study of Mus musculus with 6 samples.

Results

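The genes described here sense double-stranded RNA, relay that signal, or are switched on by interferon, and 39 of them were chosen by name out of the 55385 genes of the deposited table. All 39 were found. Expression was measured by RNA sequencing in Neuro2A (N2A) cells, a mouse neuroblastoma line that the labels describe as neuroblasts of brain. Cells received si-circCpsf6, a small interfering RNA (siRNA) against circCpsf6, a circular RNA named for the gene Cpsf6 (n = 3), or the comparison siRNA si-NC (n = 3). Both groups were transfected with a lipid reagent at a final 100 nM, so every library comes from cells that were given short double-stranded RNA, and no untransfected cells were among the samples. All libraries come from 1 cell line. Nothing in the labels tells whether replicates were grown separately, and the p-values therefore reflect library-to-library spread that could be technical. circCpsf6 itself was not matched to an entry of the gene table, so its knockdown is not analysed here.

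Viral or misplaced double-stranded RNA is recognised in the cytosol by the RIG-I-like receptors, in endosomes by Toll-like receptor 3, and by enzymes that the RNA itself activates, namely the kinase PKR and the oligoadenylate synthetases. The receptors signal through adaptors and the kinase TBK1 to IRF transcription factors, which induce type I interferon. Interferon binds its receptor and activates ISGF3, a complex that contains STAT2 and IRF9, which binds interferon-stimulated response elements (ISREs) in the promoters of antiviral genes. Many of those genes stay low in cells that have not met interferon.

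Levels are in FPKM, which corrects fragment numbers for the length of a transcript and the size of a library. Between 12671 and 13080 genes reached 1 FPKM per library, and log2(FPKM + 1) correlated at 0.936 to 0.971 within groups and 0.919 to 0.949 between groups, across genes, which are not independent replicates. Of 13 neuroblast markers, 12 passed the expression filter, a 6-library mean of 1 FPKM or more. The 13 summed to 764, 790 and 846 FPKM in si-circCpsf6, against 1095, 992 and 1206 FPKM in si-NC. Tubb3 was the largest part of the sum, at 380, 408 and 388 FPKM in si-circCpsf6, against 484, 444 and 592 FPKM in si-NC. Of the 12 tested, 5 had a log2 fold change above 0 and 7 below. Only 1 was called, Chga, a secretory granule gene, which was lower. Immune cells are a usual source of interferon-response transcripts. Of 10 macrophage and microglia markers, 1 passed the filter, and the 10 summed to 2.15 to 9.64 FPKM in si-circCpsf6 and 1.91 to 11.4 FPKM in si-NC. The one that passed, Lyz2, read 7.47, 0.09 and 1.32 FPKM in si-circCpsf6, against 8.92, 0.15 and 1.84 FPKM in si-NC. The pan-leukocyte marker Ptprc stayed at or under 0.02 FPKM. None of 9 lymphocyte or 6 dendritic cell markers passed the filter, and Cd3e, Ms4a1, Flt3 and Siglech were at 0 throughout. Of 8 fibroblast markers 2 passed the filter, and the 8 summed to 11.6, 5.53 and 8.71 FPKM in si-circCpsf6, against 10.6, 2.73 and 2.61 FPKM in si-NC. Pdgfrb, 1 of the 2, was called higher. The other, Col1a1, was not called and had a log2 fold change of -0.001. Col1a1 read 3.69, 0.16 and 1.13 FPKM in si-circCpsf6, against 4.53, 0.13 and 0.86 FPKM in si-NC. In Lyz2 and in Col1a1 the replicate numbers ranked in the same order in both groups. Thy1 stayed at or under 0.07 FPKM. The part of these markers in the results was not tested.

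Of the 39 genes, 24 passed the filter and 15 did not. Oasl1 rose in si-circCpsf6 and no member fell, by limma on log2(FPKM + 1) with p adjusted over all 12974 tested genes and a threshold of 0.05. Over all genes tested, 0.902% were called higher and 0.786% lower. At an unadjusted p under 0.05, 3 members were higher (Oasl1, Isg20 and Mx2) and 2 lower (Irf1 and Dhx58), against 10.2% and 10.1% of all genes tested. By q-values under 0.05 in the authors' deposited table, 3 were higher (Oasl1, Isg20 and Mx2) and 1 lower (Irf1), against 3.22% and 2.29% of all genes tested. The authors' deposited table also marks genes as significant, all of them with a log2 ratio of size 1 or more and p of at most 0.05, whatever their q. It marks 5 of the 39 members and does not mark Irf1. Of the tested members it marks Oasl1, Mx2 and Isg20 as higher and none as lower, against 2.84% and 1.90% of all genes tested. The other marked members, Rsad2 (q of 0.2) and Cxcl10 (q of 0.13), are marked as lower but missed the filter, so those shares do not cover them. In 4 tested members every si-circCpsf6 value lay above every si-NC value, and in 2 tested members every value lay below. Over all genes tested these shares were 12.8% and 14.0%, so groups lay apart in 25% of the tested members and in 26.9% of all genes. Among members under the filter, every si-circCpsf6 value lay below every si-NC value in Oas2, Rsad2, Ifit1 and Cxcl10, and above in none. The tested members lay on both sides of 0, with 12 above and 12 below. Their median log2 fold change was -0.005, against -0.021 over all tested genes. These are bulk samples, in which fewer cells of a type and less RNA per cell cannot be told apart.

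**Figure D1:**
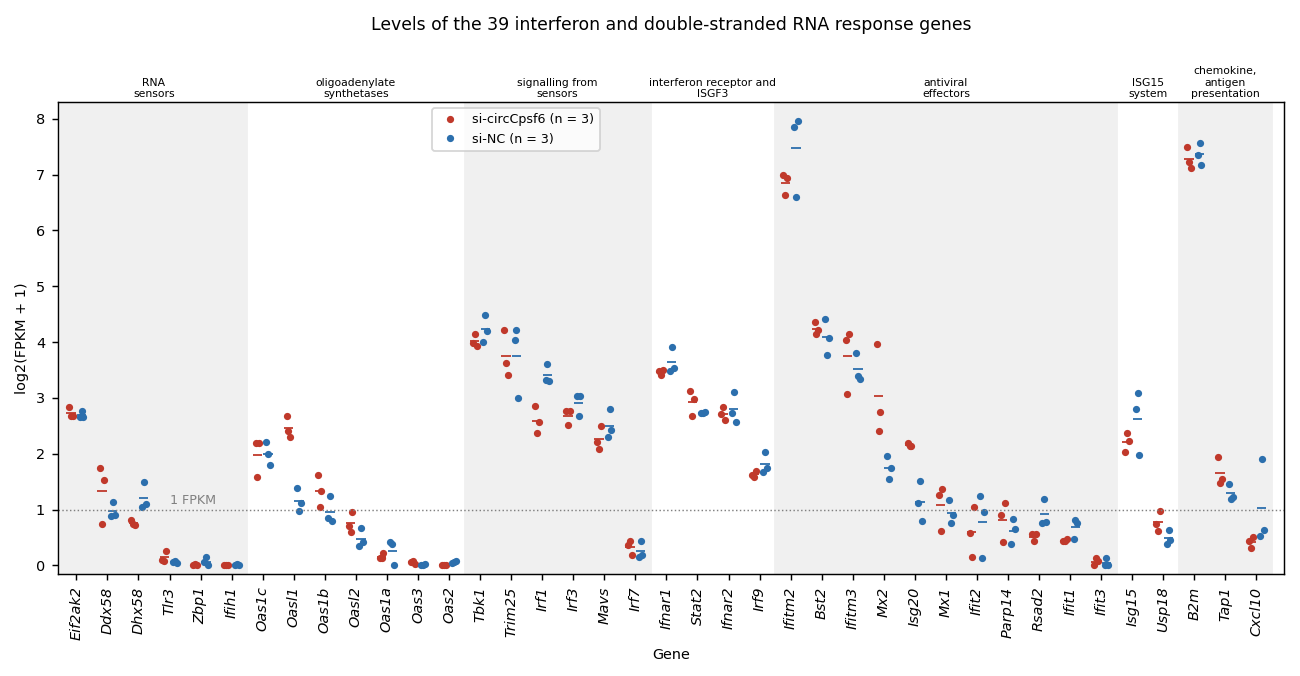
Level of each of the 39 genes as log2(FPKM + 1), by role, in si-circCpsf6 (red, left of each pair) and si-NC (blue). Points are libraries, short lines are means of 3, and the dotted line marks 1 FPKM. Ifitm2 and B2m stand far above the rest, and many sensor, OAS and IFIT genes sit near or under the dotted line.

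**Figure D2:**
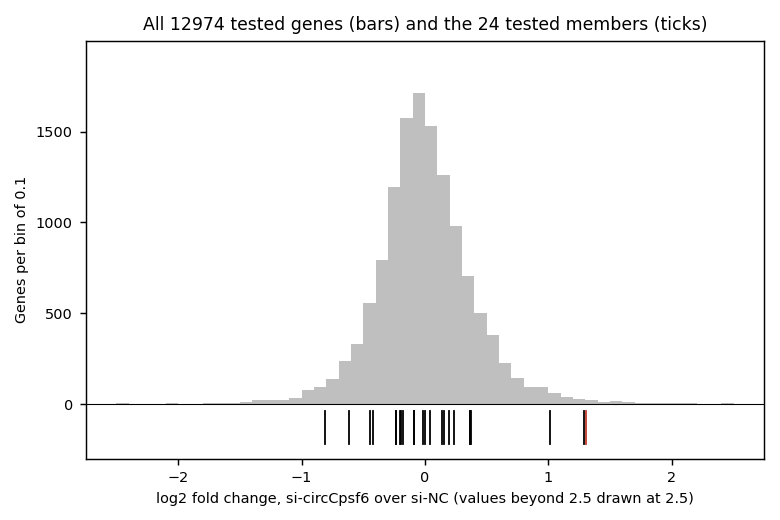
Distribution of log2 fold changes, si-circCpsf6 over si-NC, of all 12974 tested genes (bars) with the 24 tested members as ticks (red, adjusted p under 0.05). The ticks spread to both sides of 0, with 3 beyond 1 on the log2 scale (Oasl1, Mx2 and Isg20).

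Among the RNA sensors, Eif2ak2, which encodes PKR, the kinase that halts translation when it binds double-stranded RNA, had the highest level. It read 6.15, 5.41 and 5.41 FPKM in si-circCpsf6, against 5.29, 5.82 and 5.33 FPKM in si-NC. The groups overlapped and the log2 fold change was 0.04 (95% interval -0.26 to 0.33; limma adjusted p = 0.9). Ddx58, which encodes RIG-I, the receptor for RNA with a 5' triphosphate end, read 2.37, 0.68 and 1.87 FPKM in si-circCpsf6, against 0.84, 1.2 and 0.88 FPKM in si-NC. Its values in si-circCpsf6 held both the highest and the lowest of the 6 libraries (limma adjusted p = 0.5), and the log2 fold change of 0.37 was 0.16 when si-circCpsf6 replicate 1 was left out and 0.66 when replicate 2 was. Dhx58 (chr11:100694884-100704271, minus strand, GRCm38) encodes LGP2, a helicase that tunes the other receptors, and read 0.76, 0.68 and 0.66 FPKM in si-circCpsf6, against 1.07, 1.80 and 1.13 FPKM in si-NC. All of the si-circCpsf6 values were below all of the si-NC values. The log2 fold change was -0.44 ± 0.18 (SE, n = 3 each; limma adjusted p = 0.233). Dhx58 passed the filter narrowly, with a mean of 1.02 FPKM. The other sensors missed it. Ifih1, which encodes MDA5, the receptor for long double-stranded RNA, stayed at or under 0.02 FPKM in every library, Zbp1, a sensor of Z-form nucleic acid, at or under 0.11 FPKM, and Tlr3 at or under 0.2 FPKM.

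Active members of the oligoadenylate synthetase family make the 2'-5' linked messenger that activates the nuclease RNase L. Of the 7 genes of the family chosen here, 3 passed the filter. Oasl1 (chr5:114923240-114937915, plus strand, GRCm38) belongs to this family but encodes a protein without the synthetase activity, known in mouse as an inhibitor of Irf7 translation. It read 5.43, 4.29 and 3.91 FPKM in si-circCpsf6, against 1.62, 0.96 and 1.16 FPKM in si-NC. The lowest si-circCpsf6 library stood above the highest si-NC library by more than the range of either group. Oasl1 rose by a log2 fold change of 1.30 ± 0.18 on the log2(FPKM + 1) scale (SE, n = 3 each; limma adjusted p = 0.0287). Its ratio of means in the authors' deposited table was 3.64, a log2 of 1.86. The measures differ, since adding 1 to FPKM shrinks changes at low levels, and with 0.1 added the log2 fold change was 1.80. With 1 library left out the log2 fold change was 1.19 to 1.42, but the adjusted p was above 0.05 in every case. It was 0.0517, 0.0649 and 0.0752 without si-circCpsf6 replicate 1, 2 or 3, and 0.0647, 0.072 and 0.141 without si-NC replicate 1, 2 or 3. With no filter on low values it was 0.0953. Gm13822, on the opposite strand, shares 38 bases with the start of Oasl1 and read 0.49, 0 and 0.27 FPKM in si-circCpsf6 and 0 in si-NC, and reads from those bases cannot be told apart where strand is not used.

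The promoter of Oasl1 is shown because it is the member that passed the test. The 250 bases before its start (RefSeq, GRCm38.p6, chr5:114922990-114923239, plus strand) hold neither of the motifs searched, the ISRE core GAAANNGAAA and the core of the gamma-activated site bound by STAT dimers, TTCNNNGAA, on either strand. The promoter of Irf1 (chr11:53769764-53770013, plus strand), described further on, holds the gamma-activated site core, in capitals. The promoter of Isg20, whose log2 fold change lay above 0 and missed the threshold, holds that core too.
Oasl1: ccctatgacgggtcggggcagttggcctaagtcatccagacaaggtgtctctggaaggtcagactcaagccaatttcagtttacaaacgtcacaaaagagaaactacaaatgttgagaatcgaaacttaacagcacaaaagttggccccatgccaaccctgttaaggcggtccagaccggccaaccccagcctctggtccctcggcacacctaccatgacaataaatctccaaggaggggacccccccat
Irf1: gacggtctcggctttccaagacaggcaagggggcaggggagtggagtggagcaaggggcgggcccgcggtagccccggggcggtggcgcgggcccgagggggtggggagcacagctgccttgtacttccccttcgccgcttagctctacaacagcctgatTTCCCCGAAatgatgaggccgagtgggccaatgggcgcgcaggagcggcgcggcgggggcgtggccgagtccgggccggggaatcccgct

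No other oligoadenylate synthetase gene passed the test. Oas1c read 3.57, 1.98 and 3.55 FPKM in si-circCpsf6, against 3.6, 2.98 and 2.48 FPKM in si-NC, with a log2 fold change of -0.01 (95% interval -0.51 to 0.48). That value turned to 0.003 with median centring, and its adjusted p was 0.981 (limma). Oas1b, the flavivirus resistance gene that is truncated in most laboratory strains, read 2.06, 1.07 and 1.51 FPKM in si-circCpsf6, against 0.80, 1.36 and 0.74 FPKM in si-NC (log2 fold change 0.37 ± 0.21, SE, n = 3 each; limma adjusted p = 0.388). Its groups overlapped at si-NC replicate 2, and the log2 fold change was 0.23 without si-circCpsf6 replicate 1. Oasl2 stayed below the filter at 0.64, 0.52 and 0.93 FPKM in si-circCpsf6, against 0.27, 0.60 and 0.33 FPKM in si-NC. Oas1a, Oas2 and Oas3 reached at most 0.33 FPKM, and Oas2 was listed at 0 in all si-circCpsf6 libraries and at 0.03 to 0.06 FPKM in si-NC. Near-identical paralogs of the Oas1 cluster can share reads, so these values are uncertain.

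The signalling genes between sensors and interferon were among the better expressed members. Irf1 (chr11:53770014-53778374, plus strand), a transcription factor of interferon and inflammatory genes, read 6.22, 4.15 and 4.93 FPKM in si-circCpsf6, against 8.96, 11.1 and 8.90 FPKM in si-NC. All si-circCpsf6 libraries were below all si-NC libraries. Its log2 fold change was -0.81 ± 0.17 (SE, n = 3 each) and missed the threshold (limma adjusted p = 0.0599). It passed when protein-coding genes alone were tested (adjusted p = 0.0404), and in the authors' deposited table it had a q-value of 0.02. It missed with no filter (0.143) and with each library left out in turn (0.0565 to 0.203). Gm17334, which overlaps Irf1 by 907 bases on the opposite strand, averaged 0.127 FPKM in si-circCpsf6 and 0.39 FPKM in si-NC. Irf3, the factor that TBK1 phosphorylates, read 5.80, 4.72 and 5.82 FPKM in si-circCpsf6, against 7.18, 5.43 and 7.21 FPKM in si-NC (limma adjusted p = 0.449). Its groups overlapped only through si-NC replicate 2, and Bcl2l12 overlaps it on the opposite strand. Tbk1 read 14.9, 16.7 and 14.3 FPKM in si-circCpsf6, against 15.04, 21.5 and 17.3 FPKM in si-NC, and the adaptor gene Mavs read 3.65, 3.26 and 4.64 FPKM in si-circCpsf6, against 3.93, 5.93 and 4.35 FPKM in si-NC. Trim25, a ubiquitin ligase that promotes RIG-I signalling, varied widely within groups, at 17.7, 11.4 and 9.59 FPKM in si-circCpsf6, against 15.4, 17.7 and 6.96 FPKM in si-NC. None of these 3 passed the test, and their 95% intervals of the log2 fold change were -0.57 to 0.16 for Tbk1, -0.66 to 0.19 for Mavs and -0.81 to 0.81 for Trim25. Irf7, the interferon-induced amplifier of interferon transcription, missed the filter at 0.11 to 0.36 FPKM.

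None of the receptor and ISGF3 genes passed the test. Ifnar1 read 10.2, 9.65 and 10.3 FPKM in si-circCpsf6, against 10.1, 14.1 and 10.7 FPKM in si-NC, and its partner Ifnar2 read 5.55, 6.14 and 5.08 FPKM in si-circCpsf6, against 5.67, 7.64 and 4.95 FPKM in si-NC. Both were highest in si-NC replicate 2, as was Irf9, at 2.07, 2.01 and 2.21 FPKM in si-circCpsf6, against 2.20, 3.10 and 2.37 FPKM in si-NC. Irf9 overlaps Rnf31 by 123 bases on the same strand, so reads there could be shared. Stat2 read 7.77, 5.36 and 6.88 FPKM in si-circCpsf6, against 5.62, 5.6 and 5.75 FPKM in si-NC, a log2 fold change of 0.19 (95% interval -0.16 to 0.55). The log2 fold changes of these 4 genes lay between -0.19 and 0.19.

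**Figure D3:**
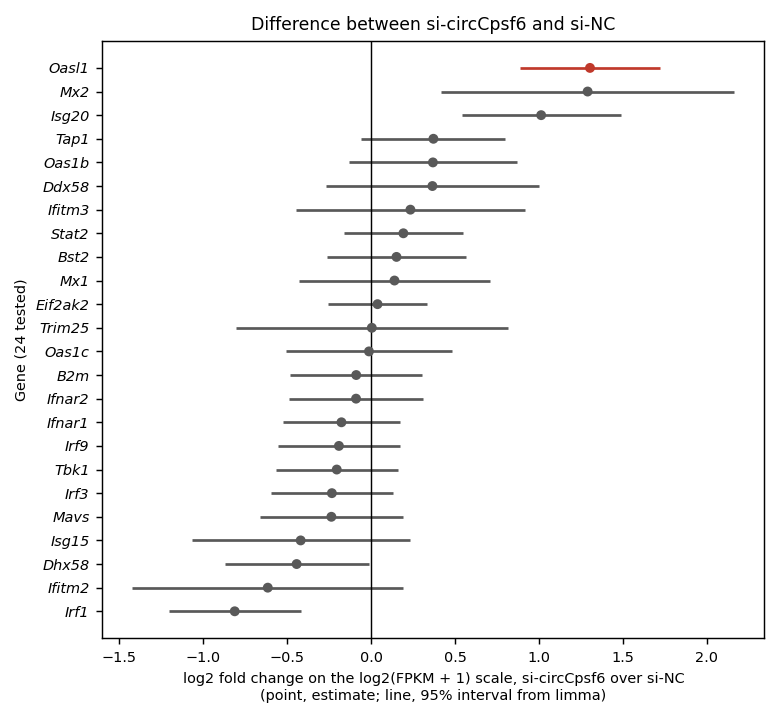
Log2 fold change of the 24 tested members, si-circCpsf6 over si-NC, on the log2(FPKM + 1) scale, with 95% intervals from limma (red, adjusted p under 0.05 over all genes). Oasl1, Mx2 and Isg20 lie highest and Irf1 lowest, and 5 intervals do not reach 0 (Oasl1, Mx2, Isg20, Dhx58 and Irf1).

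The antiviral effectors held the widest range of levels. Isg20 (chr7:78913424-78920396, plus strand), an exonuclease of single-stranded RNA, read 3.57, 3.38 and 3.43 FPKM in si-circCpsf6, against 1.18, 1.86 and 0.73 FPKM in si-NC. The si-circCpsf6 values lay within 0.2 FPKM of each other and above all si-NC values. The log2 fold change was 1.01 ± 0.20 (SE, n = 3 each) and missed the threshold (limma adjusted p = 0.0567). It passed with median centring (0.0483), with quantile normalization (0.0461) and with protein-coding genes alone (0.0352), and the authors' deposited table gives it a q-value of 0.03. It missed with no filter (0.169), with a pseudocount of 0.1 (0.0717) and with each library left out in turn (0.0639 to 0.201). Mx2 (chr16:97535308-97560900, plus strand), a dynamin-like GTPase whose gene is annotated as a polymorphic pseudogene in the reference strain, read 14.7, 4.32 and 5.70 FPKM in si-circCpsf6, against 2.90, 1.94 and 2.34 FPKM in si-NC. The groups lay apart, but si-circCpsf6 replicate 1 stood far above the other 2 si-circCpsf6 libraries. The log2 fold change was 1.29 ± 0.38 (SE, n = 3 each; limma adjusted p = 0.12), and it was 0.83 without si-circCpsf6 replicate 1 (adjusted p = 0.1). Mx1, its paralog, disrupted in many laboratory strains, read 1.39, 0.53 and 1.57 FPKM in si-circCpsf6, against 1.24, 0.69 and 0.86 FPKM in si-NC. All its si-NC values lay within the range of si-circCpsf6 (limma adjusted p = 0.795).

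Ifitm2 encodes a membrane protein that blocks virus entry, and with B2m it had the highest level of the members. It read 126, 98.6 and 122 FPKM in si-circCpsf6, against 231, 96.5 and 247 FPKM in si-NC, and si-NC replicate 2 lay below every si-circCpsf6 library while the other si-NC libraries lay above them all. The log2 fold change was -0.62 ± 0.35 (SE, n = 3 each; limma adjusted p = 0.37). Gm45717 is annotated on the same strand, and its first exon (chr7:140955670-140955937, GRCm38) lies wholly inside the first exon of Ifitm2 (chr7:140955670-140955987). Gm45717 was listed at 0 in 5 libraries and at 125 FPKM in si-NC replicate 2, 1 of 3 tested genes above 0 in a single library. Summed over both genes the values were 126, 98.6 and 122 FPKM in si-circCpsf6, against 231, 221 and 247 FPKM in si-NC, and the groups lay apart. Fitted as 1 gene, in a fit added after the values were seen, the pair fell by 1.01 ± 0.15 on the log2 scale (SE, n = 3 each; limma adjusted p = 0.0309). Because FPKM divides by the length of each gene model, such a sum is approximate. Without si-NC replicate 2 the log2 fold change of Ifitm2 alone was -1.05 (limma adjusted p = 0.0736), and without si-NC replicate 3 it was -0.38.

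**Figure D4:**
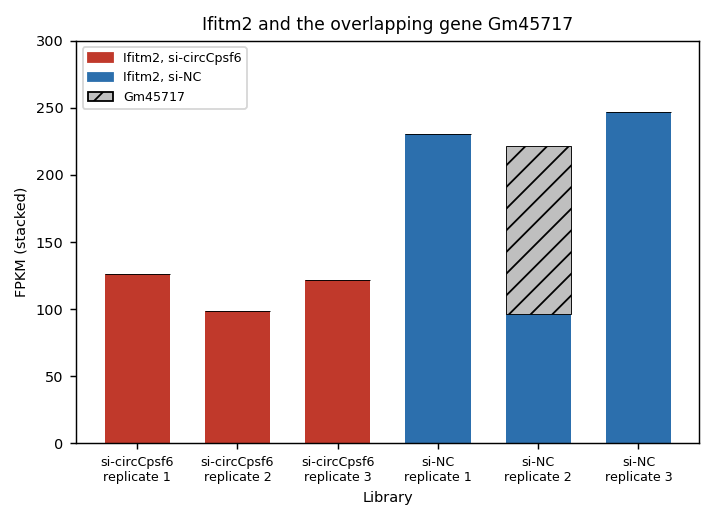
FPKM of Ifitm2 in si-circCpsf6 (red) and si-NC (blue) libraries, with Gm45717 stacked on top (hatched). Ifitm2 alone is low in si-NC replicate 2, where Gm45717 reads 125 FPKM, and the stacked height there is 221 FPKM.

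For the other membrane-bound effectors the groups overlapped and the test was not passed. Ifitm3 read 15.4, 7.38 and 16.7 FPKM in si-circCpsf6, against 13.0, 9.55 and 9.10 FPKM in si-NC (log2 fold change 0.23, 95% interval -0.45 to 0.92). Bst2, or tetherin, which holds budding virus at the cell surface, read 19.6, 16.7 and 17.5 FPKM in si-circCpsf6, against 20.2, 12.7 and 15.9 FPKM in si-NC (limma adjusted p = 0.682). The remaining effectors missed the filter. Rsad2, or viperin, a radical SAM enzyme, read 0.47, 0.35 and 0.47 FPKM in si-circCpsf6, against 0.70, 1.29 and 0.72 FPKM in si-NC. Ifit1, which binds viral RNA lacking cap methylation, read 0.35, 0.35 and 0.38 FPKM in si-circCpsf6, against 0.39, 0.76 and 0.69 FPKM in si-NC. Both were lower in every si-circCpsf6 library, at levels where the counting error is unknown. Ifit2 ranged over 0.11 to 1.06 FPKM in si-circCpsf6 and 0.09 to 1.37 FPKM in si-NC, Ifit3 stayed at or under 0.09 FPKM, and Parp14 ranged over 0.33 to 1.17 FPKM in si-circCpsf6 and 0.31 to 0.78 FPKM in si-NC.

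Isg15, a ubiquitin-like modifier, read 3.08, 4.15 and 3.70 FPKM in si-circCpsf6, against 5.99, 7.54 and 2.96 FPKM in si-NC. It overlapped through si-NC replicate 3 (log2 fold change -0.42 ± 0.28, SE, n = 3 each; limma adjusted p = 0.448). The log2 fold change was -0.74 when si-NC replicate 3 was left out, and -0.19 when replicate 2 was. Usp18, which removes that modifier and damps interferon receptor signalling, missed the filter at 0.67, 0.53 and 0.97 FPKM in si-circCpsf6, against 0.31, 0.55 and 0.37 FPKM in si-NC. B2m, the light chain of class I antigen-presenting molecules, read 180, 148 and 138 FPKM in si-circCpsf6, against 163, 190 and 143 FPKM in si-NC, with a log2 fold change of -0.09 (95% interval -0.48 to 0.31). Tap1, the peptide transporter that loads them, read 2.85, 1.79 and 1.94 FPKM in si-circCpsf6, against 1.75, 1.28 and 1.33 FPKM in si-NC. The groups lay apart by 0.04 FPKM, Psmb9 overlaps Tap1 on the opposite strand, and the log2 fold change was 0.37 ± 0.18 (SE, n = 3 each; limma adjusted p = 0.312), or 0.23 without si-circCpsf6 replicate 1. The chemokine gene Cxcl10 came nearest below the filter, with a mean of 0.795 FPKM, most of it from si-NC replicate 2. It read 0.35, 0.24 and 0.43 FPKM in si-circCpsf6, against 0.44, 2.76 and 0.55 FPKM in si-NC.

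The highest and lowest values of many members lay in the same few libraries. Of the 24 tested members, 10 were highest in si-NC replicate 2 (41.7%), the highest library in 18.6% of all tested genes. A further 8 were highest in si-circCpsf6 replicate 1 (33.3%, against 20.9% of all genes). The lowest value fell in si-circCpsf6 replicate 2 for 10 members (41.7%, against 15.2%), and in si-circCpsf6 replicate 1 for none (against 29.1%). The genes highest in si-NC replicate 2 were Dhx58, Tbk1, Trim25, Irf1, Mavs, Ifnar1, Ifnar2, Irf9, Isg15 and B2m, and those highest in si-circCpsf6 replicate 1 were Eif2ak2, Ddx58, Oasl1, Oas1b, Stat2, Mx2, Isg20 and Tap1. These counts are descriptions, since members can share regulators.

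**Figure D5:**
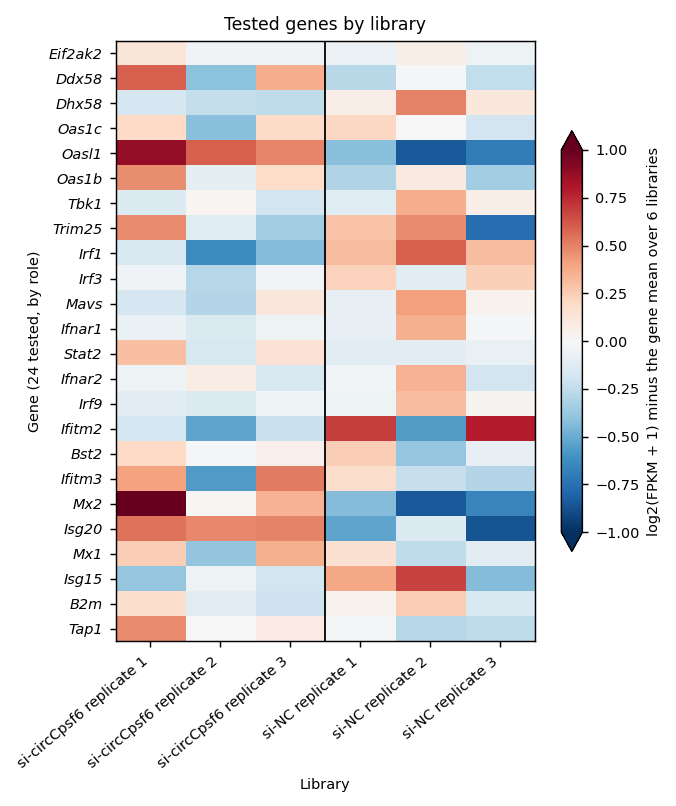
Level of each tested member in each library, as log2(FPKM + 1) minus the mean of that gene over the 6 libraries (red, above its mean; blue, below). Red cells gather in si-circCpsf6 replicate 1 and si-NC replicate 2, and Oasl1, Mx2 and Isg20 are the rows with the clearest step between the groups.

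The promoters of the members were searched for the motifs named above. Members were chosen as genes of the interferon response, and ISREs lie in promoters of such genes. A raised share of the ISRE core is therefore not independent of the choice. RefSeq windows from 250 bases before to 50 after a start were found for 31 members, and not for Dhx58, Mx1, Mx2, Oas1b, Oas2, Parp14, Usp18 and Zbp1. The ISRE core GAAANNGAAA, on either strand, stood in 16 of them (51.6%), against 3.99% of all 27025 genes with a window and 3.33% of tested genes. The core TTCNNNGAA stood in 9 (29.0%), against 9.55% of all genes. Among tested members with a window it stood in 7 of 20. Of these, Isg20, Ifitm3, Bst2 and Eif2ak2 had log2 fold changes above 0, and Irf1, Ifnar1 and Ifnar2 below. The ISRE core was found in 9 of 20 tested members with a window (45.0%) and in 7 of 11 members under the filter (63.6%). It is shown here in its promoter context for 5 tested members and for 3 that missed the filter, with matches in capitals, 5' to 3' on the strand of the gene (RefSeq, GRCm38.p6). Capitals that begin with TTTC are matches on the opposite strand. Overlapping matches run together in Isg15, Bst2 and Oas1c.
Isg15 (chr4:156200871-156200900, minus strand): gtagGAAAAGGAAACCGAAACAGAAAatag
Bst2 (chr8:71537580-71537609, minus strand): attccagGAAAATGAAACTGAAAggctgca
Oas1c (chr5:120812606-120812635, minus strand): atgggacTTTCAGTTTCCATTTCccgggaa
B2m (chr2:122147538-122147567, plus strand): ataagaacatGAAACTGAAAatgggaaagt
Stat2 (chr10:128270266-128270295, plus strand): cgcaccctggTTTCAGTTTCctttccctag
Oas3 (chr5:120777715-120777744, minus strand): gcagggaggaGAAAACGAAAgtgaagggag
Rsad2 (chr12:26456553-26456582, minus strand): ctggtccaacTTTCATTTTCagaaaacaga
Ifit3 (chr19:34583363-34583392, plus strand): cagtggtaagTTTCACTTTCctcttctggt

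Members with an ISRE core lay on both sides of 0. The 9 tested ones had log2 fold changes of -0.62 (Ifitm2) to 0.37 (Ddx58), with 5 above 0 and a median of 0.04. The 11 tested members without it had 4 above 0 and a median of -0.18, and Oasl1 was the only called gene in either group. Over all 295 tested genes with the core the median was -0.01, and 3 were called higher and 3 lower. A match to these letters is a description of sequence and not a binding site. The heptamer GCAGAAT, taken from earlier results of these data and found in the 3' UTR of 46.3% of the tested genes called lower that had an annotated 3' UTR and of 11.1% of all such tested genes, stood in none of the 24 tested members. Among the members under the filter it stood in 4 of 15 (Ifit1, Oas2, Rsad2 and Tlr3).

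Genes around the members were read from 6 further lists of the pathway, in which 80 of 153 genes found in the table passed the filter. Of these 1 was called higher and none lower (limma), with 9 higher and 8 lower at an unadjusted p under 0.05, where all genes tested had 10.2% and 10.1%, and the median log2 fold change was 0.07. Of the interferon genes themselves, 20 of 21 of types I, II and III, Ifnb1 among them, were listed at 0 in every library, and Ifnz reached 0.04 FPKM. Of 14 tested receptor and JAK-STAT genes, Stat3, the STAT that carries interleukin-6 family signals, rose to 16.2, 12.7 and 16.0 FPKM in si-circCpsf6, against 7.38, 5.74 and 6.34 FPKM in si-NC (log2 fold change 1.09 ± 0.15, SE, n = 3 each; limma adjusted p = 0.0287). The Stat3 groups lay apart. Jak1, a kinase of the interferon receptor and named with its values known, read 14.9, 18.6 and 22.97 FPKM in si-circCpsf6, against 30.9, 27.8 and 37.4 FPKM in si-NC (limma adjusted p = 0.09). Its companion Tyk2, named likewise, read 6.39, 3.6 and 5.36 FPKM in si-circCpsf6, against 4.66, 4.40 and 4.18 FPKM in si-NC (limma adjusted p = 0.707).

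None of 13 tested adaptors and kinases of the sensors passed the test. The selective autophagy receptor gene Optn averaged 20.3 ± 4.13 FPKM in si-circCpsf6 and 12.6 ± 1.89 FPKM in si-NC (SD, n = 3 each), and Trim21, a cytosolic antibody receptor, 3.44 ± 0.22 FPKM in si-circCpsf6 and 2.32 ± 0.16 FPKM in si-NC (limma adjusted p = 0.107 and 0.144). Nor did any of 20 tested genes of double-stranded RNA binding and processing. In 6 of these every si-circCpsf6 value lay below every si-NC value, and in 1 above, where all genes tested had 14.0% and 12.8%. The stress granule gene G3bp1 averaged 30.2 ± 2.23 FPKM in si-circCpsf6 and 48.5 ± 4.21 FPKM in si-NC, and Dicer1, the nuclease that cuts double-stranded RNA into small RNAs, 6.40 ± 0.22 FPKM in si-circCpsf6 and 10.5 ± 1.18 FPKM in si-NC (limma adjusted p = 0.0526 and 0.0598). Of 55 further interferon-induced genes 38 missed the filter and none of the 17 tested passed the test. Helz2, a helicase coactivator, averaged 5.36 ± 0.39 FPKM in si-circCpsf6 and 3.50 ± 0.74 FPKM in si-NC, and Shisa5 20.1 ± 5.95 FPKM in si-circCpsf6 and 12.9 ± 2.91 FPKM in si-NC (limma adjusted p = 0.138 and 0.252). Of 16 tested class I presentation genes none passed. The class I gene H2-Q4 averaged 4.36 ± 1.195 FPKM in si-circCpsf6 and 1.64 ± 0.39 FPKM in si-NC, and H2-M3 4.36 ± 1.18 FPKM in si-circCpsf6 and 2.25 ± 0.48 FPKM in si-NC (limma adjusted p = 0.0642 and 0.119), and class I genes are close paralogs whose reads can be shared.

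In the annotation of the deposited table, the term double-stranded RNA binding held 53 tested genes beside the members. None of these was called lower, 7 were higher and 5 lower at an unadjusted p under 0.05 (limma), and 1 was called higher, Msn, which encodes the membrane linker moesin. Msn, named after its values were seen, averaged 45.4 ± 3.33 FPKM in si-circCpsf6 and 24.5 ± 3.17 FPKM in si-NC (limma adjusted p = 0.0346).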

How the data were processed

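Neuro2A libraries were grouped by sample title into si-circCpsf6 (n = 3) and si-NC (n = 3). The authors deposited 1 table with an FPKM value per gene and library, with 2 decimals. Beside these the deposited table gives a fold change (ratio) and log2 fold change by the authors, p-values and q-values, and a mark of significance. The submitters' processing notes name Bowtie 0.12.2, without a role. No source used here gives the programs behind the FPKM and the p-values, or how strand was handled. The labels name a small RNA kit for these mRNA libraries. Of the low FPKM values of genes with a single short transcript, at most 31.9% were whole multiples of a step within 0.1, so counts were not recovered and depth is unknown.

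Log2(FPKM + 1) values of genes whose 6-library mean was 1 FPKM or more were fitted by group alone, using limma 3.58.1 (R 4.3.3), with an intensity trend and Benjamini-Hochberg adjustment over all 12974 genes (threshold 0.05). The test was run on simulated data whose noise was drawn independently for each library, with no effect shared by replicate number. The outcome of that run is not reported here. An exact permutation test was not used, since with 3 libraries a group its smallest p is 0.1. Members were found by gene name, and the members and lists were chosen with earlier results of these data known. Full statistics are given for members past the test and the 8 with the next smallest p. Of the pathway lists, genes past the test are named, or else the 2 with the smallest p. Where a gene was named with its values known, the text says so. Tried instead were quantile normalization, median centring, no filter, a minimum mean of 5 FPKM, a pseudocount of 0.1, no trend, a replicate block, protein-coding genes alone, the authors' q-values, leaving out each library, and, added after the data were examined, a sum of 2 overlapping genes. Positions, gene classes and 3' UTRs came from GENCODE M21 (GRCm38), and promoter windows from RefSeq (GRCm38.p6). Figures and sequence searches used Python 3.11.15 with pandas 2.3.3, numpy 2.4.6 and matplotlib 3.10.9. A few genes of the marker and pathway lists are not reported here.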

Additional observations from a re-analysis of the deposited data

How the results depend on the processing

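Isg20 joined Oasl1 among members called higher with median centring (2 members) and quantile normalization (2). With protein-coding genes alone 2 members were higher (Oasl1 and Isg20) and 1 lower (Irf1), over 240 higher and 189 lower genes. GENCODE classes Mx2 and Oas1b as polymorphic pseudogenes, so that setting leaves them out. By the authors' q-values 3 were higher and 1 lower, over 418 and 297 genes. With no filter 0 members were called higher, over 4 higher and 9 lower genes. More genes were tested there, and the unadjusted p of Oasl1 was also larger (limma, 0.000397, against 0.000115 in the main fit). A minimum mean of 5 FPKM gave 0 members, because Oasl1 is below it. Summing Ifitm2 and Gm45717, added after the data were examined, gave 1 member lower. Leaving out a library gave 0 members higher, and 1 to 43 genes higher and 2 to 44 lower, a range in which fewer libraries were fitted.

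Same-numbered libraries deviated together at correlations of 0.103, 0.129 and 0.084, and each library correlated best with its own number, a hint from the data and not the design. With the replicate block 0 members were called higher (Oasl1 adjusted p = 0.0541), over 6 higher and 5 lower genes. In that fit the limma adjusted p was 0.083 for Isg20 and 0.106 for Irf1.

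The median of tested members was -0.144 to 0.064 over all alternatives. Of 371 values of single members under alternatives, 12 changed sign, in 7 members, and the cause of these and of the shifts with normalization, the block or the authors' q-values was not tested. Oas1c was 0.003 with median centring, 0.191 without si-circCpsf6 replicate 2 and 0.089 without si-NC replicate 1 (leave-one-out range -0.117 to 0.191). Trim25 was -1.5e-04 with quantile normalization, -0.231 without si-circCpsf6 replicate 1, -0.375 without si-NC replicate 3 (range -0.375 to 0.241) and -0.05 by the authors. Eif2ak2 was -0.015 without si-circCpsf6 replicate 1 (range to 0.075), and Mx1 -0.003 without si-circCpsf6 replicate 3 (to 0.371). Without si-NC replicate 2, B2m was 0.015 (range from -0.199), Bst2 -0.005 (to 0.31) and Ifnar2 0.062 (from -0.207). Depth is unknown, so the error of values under 1 FPKM is too.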
